A study of Mus musculus with 12 samples.

Results

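The genes described here encode proteins of the cytosolic ribosome, 25 of the large subunit (Rpl genes) and 20 of the small subunit (Rps genes). They were taken as a named list of 45 protein-coding genes, without pseudogenes, by a rule that uses gene names and no BRG1 value, though the list was drawn up with results of these data known. All 45 were found among the 22367 protein-coding genes annotated on chromosomes 1 to 19, X and Y of the mouse genome assembly mm9. Their BRG1 regions were read from the single list of regions of wild-type CPs. CPs are cardiac progenitors, here differentiated from mouse embryonic stem cells of strain W4/129S6 at passages 15 to 20, with VEGF, Activin and BMP4 and then FGFs. Behind the list stand 2 BRG1 ChIP libraries and 1 input library, and the other 9 of the 12 libraries, from wild-type CMs, from CPs and CMs lacking BAF170 and from CMs lacking BAF60c, were not analysed here. The list has 4791 rows and 3473 distinct regions with positions only. The number of distinct regions equals the number of CM sites in the study's text, a match that was not resolved here, and the list was read as one of wild-type CPs, as it is named. A spread between replicates can therefore not be given, the depth is unknown, and a gene without a region may be unbound or below the authors' threshold. No expression values were used here, and the labelled cell type was not checked against markers.

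Each ribosome carries a single copy of most ribosomal proteins, and growing cells transcribe their genes constantly and at high rates. The promoters lie in CpG islands and the mRNAs start with a pyrimidine tract, the 5' TOP, through which mTOR signaling controls their translation. BRG1 is the ATPase of the BAF chromatin remodeling complexes, which move and evict nucleosomes, and ChIPseq maps the DNA that is crosslinked to it. The question asked of these genes was whether constantly active promoters with many CpGs carry a BRG1 region as often as other promoters with as many CpGs. A promoter is here the sequence up to 1 kb before and after any annotated TSS, and a region counts if any base of it lies there.

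A BRG1 region lay at the promoter of 3 of the 45 ribosomal protein genes, Rpl7, Rpl19 and Rps20. This is 6.67% (95% Wilson interval 2.29 to 17.9%, for counting over genes only), beside a background of 11.9% over all protein-coding genes. Among other protein-coding genes with exactly the same number of promoter CpGs, 17.6% had a region, averaged over the 45 genes and drawn from 3453 genes. The difference of the ribosomal protein genes from these genes was -10.95 percentage points. Summed over the 45 genes, the same-CpG shares come to 7.93 genes. The share at the same CpG count lay inside the interval around the share of the 45 genes, near its upper end, and no test was made on a list chosen with results known. Of the genes of the large subunit, 2 of 25 had a region (8%, against 18.8% at the same CpG count), and of the small subunit, 1 of 20 (5%, against 16.0%).

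The listed sequences at these promoters show what the counts rest on, and the sequences of Rpl7 and Rps19 show CpG-containing DNA directly before a ribosomal protein gene where no region was listed. All are mm9 sequence, written 5' to 3' on the strand of the gene, with each CpG in capitals. The Rpl19 region is chr11:97888346-97888645 (plus strand), the Rps20 region is chr4:3762526-3762645 (minus strand), and the 250 bp before the 5' end are chr1:16094744-16094993 (minus strand) for Rpl7 and chr7:25669140-25669389 (plus strand) for Rps19.
Rpl19 region: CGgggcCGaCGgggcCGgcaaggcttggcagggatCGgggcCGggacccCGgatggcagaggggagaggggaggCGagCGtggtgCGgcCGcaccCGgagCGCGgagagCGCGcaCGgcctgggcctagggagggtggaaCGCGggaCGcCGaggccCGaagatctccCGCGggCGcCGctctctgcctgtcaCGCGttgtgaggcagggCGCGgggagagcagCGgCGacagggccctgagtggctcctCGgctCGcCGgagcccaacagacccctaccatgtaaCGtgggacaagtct
Rps20 region: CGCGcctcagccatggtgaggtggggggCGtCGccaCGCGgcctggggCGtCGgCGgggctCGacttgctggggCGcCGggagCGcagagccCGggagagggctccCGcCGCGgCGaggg
Rpl7 before the 5' end: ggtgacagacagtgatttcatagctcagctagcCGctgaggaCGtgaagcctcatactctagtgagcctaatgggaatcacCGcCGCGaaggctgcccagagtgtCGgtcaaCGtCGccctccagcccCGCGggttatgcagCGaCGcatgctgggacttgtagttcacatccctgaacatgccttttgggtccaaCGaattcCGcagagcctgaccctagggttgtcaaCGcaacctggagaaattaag
Rps19 before the 5' end: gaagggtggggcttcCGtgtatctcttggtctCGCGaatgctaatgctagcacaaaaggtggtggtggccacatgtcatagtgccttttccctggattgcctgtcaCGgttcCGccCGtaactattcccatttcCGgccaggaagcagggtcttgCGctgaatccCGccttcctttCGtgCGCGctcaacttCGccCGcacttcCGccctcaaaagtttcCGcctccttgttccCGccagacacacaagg
The Rpl19 region held 36 CpGs in 300 bp at a GC content of 74%, and the Rps20 region 18 CpGs in 120 bp at 80.8%. The 250 bp before Rpl7 held 15 CpGs, equal to the median of the 45 genes, and those before Rps19 held 17. Other protein-coding genes had a median of 8 CpGs in these 250 bp, and those of them with a region a median of 20. The listed regions are different windows, so their CpG counts cannot be set beside those of the 250 bp. The 250 bp before the TSS with the most CpGs held 14 CpGs for Rpl19 (GC content 48%) and 25 for Rps20 (63.2%). For Rpl19 this TSS lies inside the annotated gene. By this count Rpl19 lay below both Rpl7 and Rps19, and Rps20 above both.

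Rpl19, a large subunit protein, is annotated at chr11:97888024-97891806 on the plus strand (ENSMUSG00000017404), with 3 TSSs. Its region was 300 bp wide and on a single row of the list. All of it lay in the first intron of the transcript Rpl19-001, of 832 bp, beginning 41 bp after the end of exon 1, and no base of it lay in an exon. Its midpoint was 471.5 bp downstream of the 5' end of the gene and 224.5 bp from the nearest TSS. The promoter held 113 CpGs, and 18% of the 100 other genes with 113 CpGs had a region.

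Rps20, a small subunit protein, is annotated at chr4:3758481-3762812 on the minus strand (ENSMUSG00000028234), also with 3 TSSs and 113 promoter CpGs. Its region was narrower, 120 bp on a single row, with 15 bp at the end of exon 1, where the start codon lies, and 105 bp in the first intron of 192 bp. An annotated transcript with a retained intron covers all 120 bp. The midpoint was 226.5 bp downstream of the 5' end and 49.5 bp from the nearest TSS, closer to a TSS than the region of any other of the 45 genes. The gene body of Rps20 also holds 1 snoRNA gene. Rpl19 and Rps20 were the only 2 of the 45 genes with a region inside the gene body.

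Rpl7, a large subunit protein, is annotated at chr1:16091376-16094743 on the minus strand (ENSMUSG00000043716), with 6 TSSs and 144 promoter CpGs. Its region, chr1:16095286-16096505, was the widest of the 3, with 1220 bp, and was on 3 rows. It lay wholly upstream of Rpl7, at -1762 to -543 bp from the 5' end, and reached into the 1 kb promoter with one edge. The TSS of Rdh10, a retinol dehydrogenase that acts in retinoic acid synthesis, is 1112 bp from the 5' end of Rpl7 on the other strand, and the midpoint of the region was 40.5 bp from that TSS. The region was thus shared with Rdh10. With promoters of 500 bp, with the region's midpoint in place of any overlap, or with each region given to its nearest coding TSS only (added after the data were seen), Rpl7 had no region, and 2 of 45 genes (4.44%) did.

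**Figure D1:**
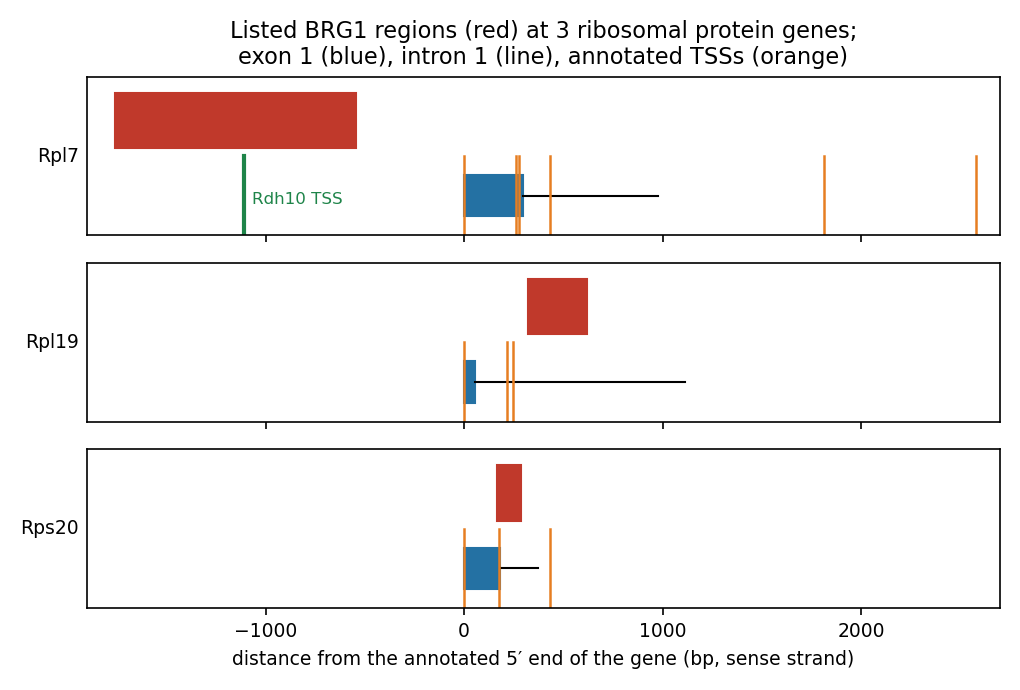
Maps of the 3 ribosomal protein genes with a BRG1 region, with distance in bp from the 5' end of the gene in the direction of transcription. Shown are the listed region, annotated TSSs, and exon 1 and intron 1 of the coding transcript that starts nearest the 5' end. For Rpl19 this is Rpl19-002 and not Rpl19-001, the transcript described in the text. The regions of Rpl19 and Rps20 begin 322 and 167 bp after the 5' end, and the region of Rpl7 lies at -1762 to -543 bp from it, over the TSS of Rdh10.

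The 3 regions were 120, 300 and 1220 bp wide, with a median of 300 bp. Over all 2510 distinct regions at promoters of protein-coding genes the median was 420 bp, with quartiles at 200 and 720 bp, so that Rpl19 lay within these quartiles, Rps20 below and Rpl7 above them. More than 1 row listed 1 of the 3 regions, and 27.1% of the 2510. The midpoint was downstream of the nearest TSS of the gene for 2 of the 3, and for 67.7% of the 2720 pairs of a coding gene and a region at its promoter.

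CpG counts were taken in the 2001 bp around the TSS with the most CpGs. The ribosomal protein genes had 68 to 153 CpGs, with a median of 99 and quartiles at 93 and 102, against a median of 66 over all protein-coding genes. Other genes with a region had a median of 128 CpGs and other genes without one a median of 56, and 42 of the 45 ribosomal protein genes lay below 128. The ribosomal protein genes thus sat in the middle of the scale, where the share of other genes with a region rose steeply. Of other genes, 0.0236% had a region at fewer than 20 CpGs and 61.4% at 200 to 219 CpGs. The same-CpG share of a single ribosomal protein gene ranged from 3.75% for Rpl6 to 48% for Rpl24, and rested on 50 to 178 genes each. For Rpl24 the TSS with the most CpGs lay inside the annotated gene and not at its 5' end. The same held for other genes, among them Rpl18 and Rps10.

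**Figure D2:**
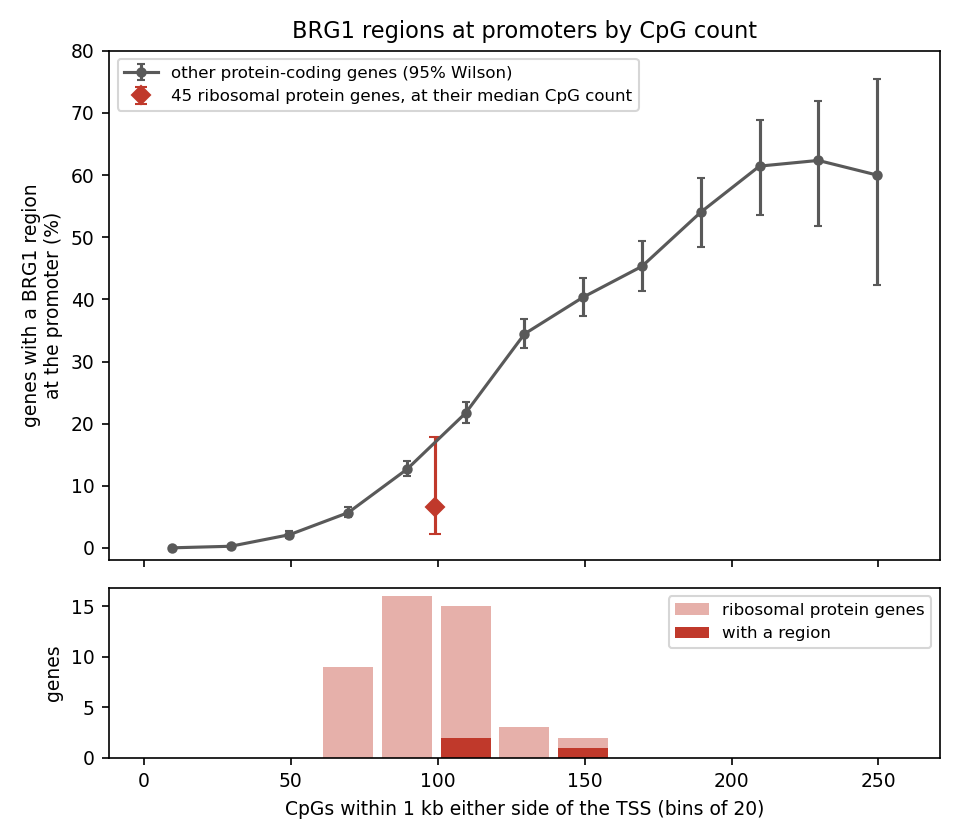
Percent of other protein-coding genes with a BRG1 region at the promoter by promoter CpG count in bins of 20 (points, 95% Wilson intervals), with the 45 ribosomal protein genes at their median CpG count, and the number of ribosomal protein genes in each bin with and without a region. The share of other genes rises from 5.69% at 60 to 79 CpGs to 40.4% at 140 to 159 CpGs, and the ribosomal protein genes stand at 6.67%.

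At 60 to 79 CpGs, where 5.69% of other genes had a region, none of 9 ribosomal protein genes did. These were Rpl3, whose protein lies near the peptidyl transferase center, Rpl4, Rpl6, Rpl27, Rps3, which lies at the mRNA entry, Rps9, Rps23, which lies near the decoding center, Rps27 and Rps28. At 80 to 99 CpGs, where 12.7% of other genes had a region, none of 16 did. Among these were Rpl5 and Rpl11, which bind the 5S rRNA and hold back MDM2 when ribosome assembly fails, and Rps14, the gene implicated in the anaemia of the 5q- syndrome. The others were Rpl8, Rpl18, Rpl30, Rpl32, Rpl37, Rps12, Rps13, Rps15, Rps16, Rps18, Rps21, Rps24 and Rps25.

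At 100 to 119 CpGs, 2 of 15 ribosomal protein genes had a region, beside 21.7% of other genes. Rpl19 and Rps20 had one, and Rpl12, Rpl13, Rpl14, Rpl15, Rpl22, Rpl23, Rpl26, Rpl28, Rpl35, Rpl38, Rps7, Rps10 and Rps29 did not. Rpl38 is mutated in the Tail-short mouse and bears on Hox mRNA translation. At 120 to 139 CpGs none of 3 had a region, Rpl34, Rps6 and Rps19, beside 34.4%, and at 140 to 159 CpGs Rpl7 had one and Rpl24 did not, beside 40.4%. All 3 genes with a region had 100 or more CpGs, where 3 of 20 ribosomal protein genes had a region against 23.0% at the same CpG count. Below 100 CpGs it was 0 of 25 against 13.3%.

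The 3 genes with the most CpGs and no region were Rpl24, Rps6 and Rps19. Rpl24, which is mutated in the Belly spot and tail mouse, had 153 CpGs, the most of the 45, and 24 of the 50 other genes with that count had a region (48%). Its nearest region was 55.5 kb away, at the promoter of Pcnp. Both the count and the distance of Rpl24 were taken at a TSS at chr16:55973996. This TSS lies inside the annotated gene, which runs from 55966388 to 56009026, so they do not describe the sequence at its 5' end. The rank of Rpl24 and its same-CpG share rest on this TSS. Whether it belongs to the transcript of the ribosomal protein was not checked. Rps6, the substrate of the S6 kinases downstream of mTOR, had 130 CpGs, and 24 of 61 other genes with that count had a region (39.3%). Its nearest region, at Acer2, was 17.1 kb away. Rps19, the gene most often mutated in Diamond-Blackfan anaemia, had 124 CpGs, and 18 of 84 other genes with that count had a region (21.4%). Its nearest region, at Arhgef1, was 14.4 kb away, downstream of the gene.

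The lowest count belonged to Rps27, with 68 CpGs, where 3.79% of other genes had a region. Rpl15 had 117 CpGs, with 34.0% at the same count, and its nearest region was 32.0 kb away at Nr1d2. Diamond-Blackfan anaemia is a failure of red cell production in which a ribosomal protein gene is often mutated. Of its genes, Rps7, Rps10, Rps19, Rps24, Rps27, Rps28, Rps29, Rpl5, Rpl11, Rpl15, Rpl18, Rpl26, Rpl27 and Rpl35 are among the 45. None of these 14 had a region, which allows a share of up to 21.4% by the 3 genes that a count of 0 allows, and the share at the same CpG count was 16.8%, within that limit.

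Distances run from the closest TSS of a gene to the middle of the closest region. Over the 45 genes the median was 60.7 kb, with quartiles at 17.4 and 149 kb. Over all protein-coding genes it was 166 kb, with quartiles at 46.3 and 533 kb, and the medians of the genes with the same CpG count averaged 102 kb. The order of the shares turned with distance. Within 2 kb lay a region for 3 of the 45 genes (6.67%), against 18.02% at the same CpG count, and within 10 kb for 6 (13.3%), against 20.3%. Within 25 kb it was 14 (31.1%), against 25.4%, within 50 kb 19 (42.2%), against 35.2%, and within 100 kb 28 (62.2%), against 50.2%. Thus a smaller share of ribosomal protein genes than of genes with the same CpG count had a region within distances up to 10 kb. From 25 kb on the share was larger. This describes shares of genes and not numbers of regions, and was not tested.

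**Figure D3:**
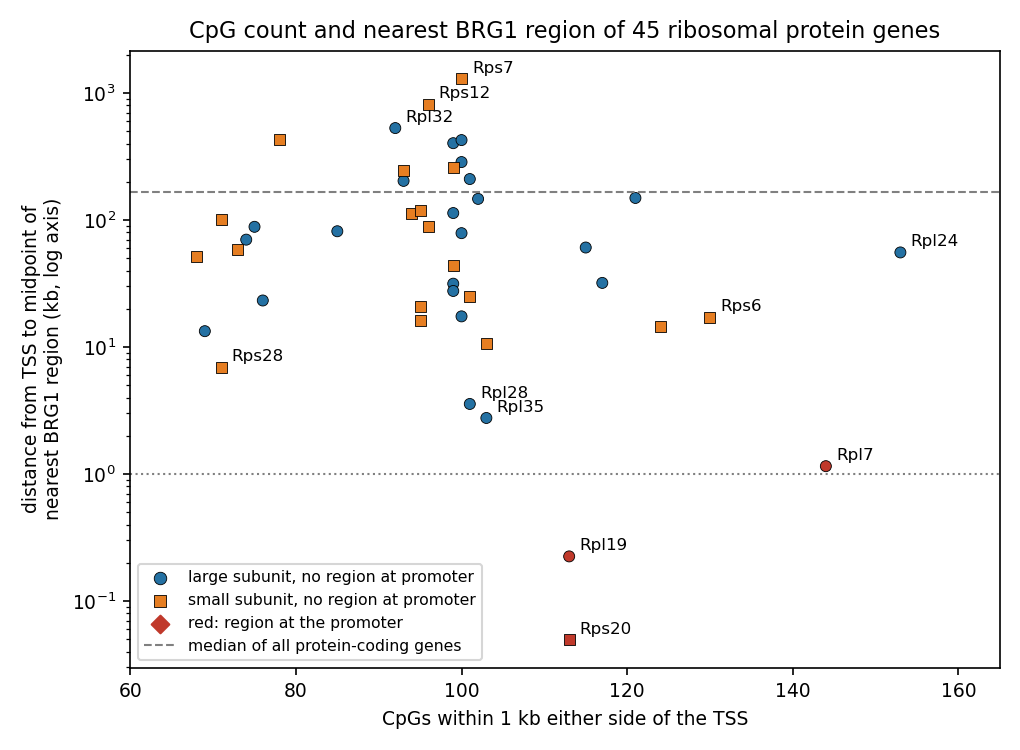
Distance in kb between the closest TSS of each of the 45 ribosomal protein genes and the middle of the closest BRG1 region (log scale) against the promoter CpG count, with genes that have a region at the promoter marked. The 3 marked genes have 113, 113 and 144 CpGs and lie at 0.0495, 0.2245 and 1.1525 kb, and the nearest of the other 42 genes, Rpl35, lies at 2.76 kb.

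For 34 of the 42 genes without a region, the nearest region was at the promoter of another coding gene, and for 8 at no coding promoter. The 5 nearest were those of Rpl35 at 2.76 kb, Rpl28 at 3.56 kb, Rps28 at 6.91 kb, Rps10 at 10.7 kb and Rpl6 at 13.3 kb. The region near Rpl35 was at Arpc5l, a subunit of the Arp2/3 actin nucleation complex, and that near Rpl28 at the uncharacterised gene 2210411K11Rik. The region near Rps10 was at Nudt3 and that near Rpl6 at Ptpn11, the phosphatase SHP2. The region near Rps28 was at no coding promoter. The 3 farthest were those of Rps7 at 1294 kb, at the SoxC transcription factor gene Sox11, of Rps12 at 808 kb, at the matrix protein gene Ctgf, and of Rpl32 at 529 kb, at March8.

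Other regions nearest to ribosomal protein genes were at Pdgfb (Rpl3, 70.0 kb), Myh10 (Rpl26, 210 kb), Cdx1 (Rps14, 259 kb), Lasp1 (Rpl23, 17.4 kb) and Prkaa1 (Rpl37, 27.6 kb). Within 50 kb of the 45 genes lay the TSSs of 144 other protein-coding genes, of which 21 had a region (14.6%, 95% Wilson interval 9.74 to 21.3%), beside 14.1% at the same CpG count. These neighbours had a median of 80 CpGs. At least 1 neighbour with a region was found for 17 of the 45 genes. The median number of neighbours was 2, as over all genes.

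The promoters of 8 of the 45 genes also held the TSS of another coding gene, and none of the 8 had a region. The pairs were Rps27 and Rab13, Rps28 and Ndufa7, Rpl4 and Zwilch, Rps25 and Trappc4, Rps18 and Vps52, Rpl18 and Sphk2, Rpl12 and Lrsam1, and Rpl15 and Nkiras1. Among other genes 3051 (13.7%) shared a promoter in this way, of which 14.5% had a region. With shared promoters left out on both sides, 3 of 37 ribosomal protein genes had a region (8.11%), against 20.5% at the same CpG count.

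Words of DNA were counted from 250 bp before to 50 bp after the 5' end of each gene, on both strands unless stated, as a description of these letters and not of binding. The ETS word CCGGAAG was at 13 of the 45 genes (28.9%), against 10.7% of other protein-coding genes, and Rpl19 was the only one of the 13 with a region. Of other genes with that word, 13.1% had a region. The Sp word GGGCGG was at 17 (37.8%, against 43.4%), Rps20 among them, and the YY1 word AAGATGGC at 2 (4.44%, against 3.29%). The TATA word TATAAA was at 6 (13.3%, against 13.4%), again with Rps20. Some of these words can share letters where they meet, such as the AAG of CCGGAAG and AAGATGGC, and each was counted on its own.

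On the sense strand, the pyrimidine words CTTTTC or CTCTTT, which can overlap each other, lay within 50 bp of the 5' end at 11 of the 45 genes (24.4%), against 6.44% of other genes. None of the 11 had a region, and 7.16% of other genes with these words had one. An unbroken run of at least 8 C or T within 20 bp of the 5' end was found at 18 genes (40%), against 15.6%, and the longest, of 17 bases, was at Rpl32. Other annotated TSSs of a gene were not searched in this way, so a gene not counted here can still have such a run. A snoRNA gene lay inside 15 of the 45 genes, 25 snoRNA genes in all, against 2.06% of other genes. Of these 15 host genes 1 had a region, Rps20, beside 3 of all 45. Among the 460 other genes with a snoRNA inside 21.7% had one. That share was not matched for CpG count, and the difference was not tested.

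Ribosomal protein genes have many processed pseudogenes, which copy exons, so reads from exons can map to several places and be lost at the authors' mapping quality filter. Of the 75 bp words of the promoter windows, as long as the reads, a median of 98.4% occurred once in mm9 over the 45 genes, against 100% over all protein-coding genes. The part upstream of the TSS was at a median of 100% and the part downstream at 98.0%, and 31 of the 45 genes had only unique words upstream. Below 90% were Rps29 with 84.9%, Rpl6 with 88.7% and Rpl13 with 88.8%, and the 3 genes with a region were at 100% (Rpl7), 98.4% (Rpl19) and 99.0% (Rps20). With promoters of at least 90% unique words on both sides, 3 of 42 ribosomal protein genes had a region (7.14%), against 18.2% at the same CpG count. Only exact copies of a word were counted, so a word with a nearly identical copy counts as unique. Whether reads were lost at these genes was not tested.

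The other cytosolic ribosomal protein genes were counted in the same way. Of 35 such genes, such as Rplp0 of the ribosomal stalk, Rpsa and Rack1 under its older symbol Gnb2l1, 34 were found by symbol, all but Rpl41. None of the 34 had a region, which allows a share of up to 8.82% by the same limit, and 16.5% had one at the same CpG count, above that limit. The shortest distance from any of the 34 to a region was 18.4 kb, for Rpl17, and the median was 120 kb. Counted together, an addition made after the data were seen, 3 of all 79 cytosolic ribosomal protein genes had a region, 3.80% (1.30 to 10.6%), against 17.3% at the same CpG count, which lay above the interval.

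**Figure D4:**
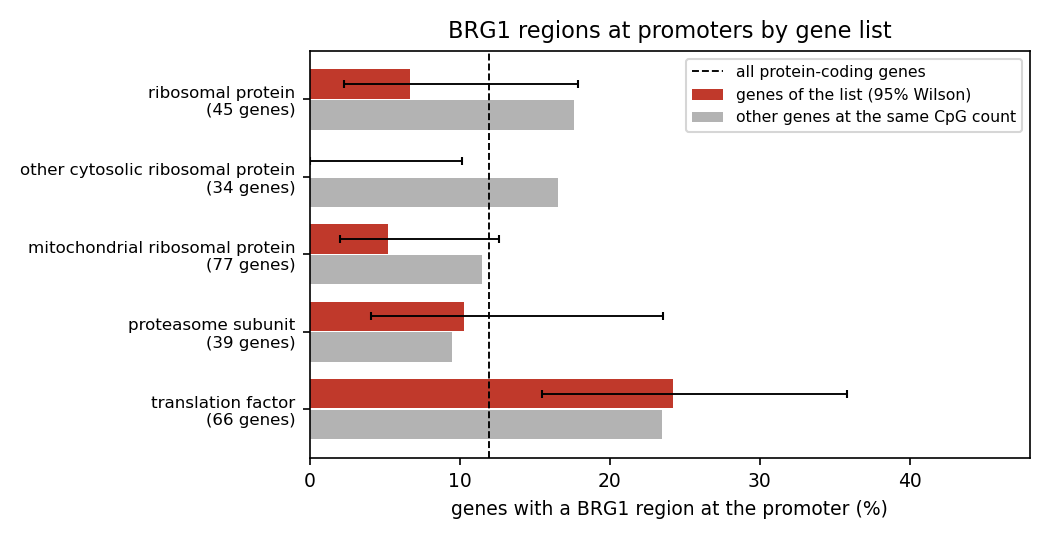
Percent of genes with a BRG1 region at the promoter (bars, 95% Wilson intervals for counting over genes) for the 45 ribosomal protein genes and other gene lists of protein synthesis and breakdown, each beside the share of other protein-coding genes with the same promoter CpG count. The 45 genes stand at 6.67% beside 17.6%, mitochondrial ribosomal protein genes at 5.19% beside 11.5%, and translation factor genes at 24.2% beside 23.5%.

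Other gene lists of protein synthesis and breakdown were counted beside the ribosomal protein genes, and differences between lists were not tested. Of 77 mitochondrial ribosomal protein genes, 4 had a region, 5.19% (2.04 to 12.6%), against 11.5% at the same CpG count, which lay inside the interval. These were Mrpl15, Mrpl33, Mrps35 and Mrpl52. The 77 were taken by symbol and hold Mrps36-ps1, annotated as protein coding but named as a pseudogene, with 15 CpGs and no region. Of 66 genes named as translation factors, 16 had a region, 24.2% (15.5 to 35.8%), beside 23.5% at the same CpG count. Among these 16 were Eif4g2, Eif4h, Eif3b, Eif4a3 and Eif5, and also Eif2c2 and Eif2ak3, which carry such a symbol but encode an Argonaute protein and a stress kinase. The list was taken by symbol alone and not checked for function. It also holds other Eif2c and Eif2ak genes, Eef2k, Eif4ebp genes and, among the 16, Eif4enif1. Proteasome subunit genes stood at 4 of 39, 10.3% (4.06 to 23.6%), beside 9.45%.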

How the data were processed

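BRG1 ChIPseq of wild-type CPs was used (2 ChIP libraries, 1 input library). The authors aligned single-end 75 bp reads, after trimming by fastq-mcf, with Bowtie against mm9, applied a mapping quality filter and kept bins whose enrichment over input passed a P-value threshold. In the deposited list each region has a chromosome, a start and an end in bp, with no height, fold or P-value. Tool versions and the way of combining both ChIP libraries into 1 list are not given in the sources used here. Starts were read as counted from 0 and are printed counted from 1, and a distinct region was counted once.

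Positions were set against GENCODE release M1 and the mm9 sequence with Python 3.11.15, numpy 2.4.6, scipy 1.17.1, pysam 0.24.0, numba 0.67.0 and matplotlib 3.10.9. Of 37310 annotated genes, 22380 are protein coding, and 13 of these, outside chromosomes 1 to 19, X and Y, were left out. Genes were counted by identifier, and the 22367 have 22225 distinct symbols. In the compared lists each symbol was counted once, by its longest entry, which left out 3 second entries. For each ribosomal protein gene, the share with a region was taken over other protein-coding genes with exactly the same promoter CpG count, and these shares were averaged. Wilson intervals at 95% and the limit for a count of 0 cover counting over genes only, since 1 list has no replicates. The counting was tested on simulated data. The members, gene lists and words were chosen with earlier results of these data known. All 45 genes are named, with values for those with a region, the 5 nearest to a region, the 3 farthest and the 3 with most CpGs without one. Rpl6, Rps27, Rpl15 and the genes whose nearest regions lay at Pdgfb, Myh10, Cdx1, Lasp1 and Prkaa1, as well as the 3 genes below 90% unique words, were picked out after their values were seen. The alternatives concerned the promoter, the TSSs, the CpG window and matching, shared promoters, uniqueness, autosomes and the counting of rows.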

Additional observations from a re-analysis of the deposited data

How the results depend on the processing

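Over 5 results and 41 alternatives, 6 of them added after the data were seen, no direction reversed and 36 values stayed within the counting interval of the reported share or difference, or within 1.5 times the reported distance or width. The share of ribosomal protein genes with a region ranged from 3.80% to 8.11%, the share at the same CpG count from 15.6% to 20.5%, and their difference from -13.5 to -8.95 percentage points, below 0 in all 14 alternatives. The 3.80% and -13.5 come from adding the other cytosolic ribosomal protein genes, 79 in all. Within the 45 genes the lowest share was 4.44% and the lowest difference -12.9 percentage points. The share at the same CpG count left its counting interval with the 5' end of each gene only (15.9%), without shared promoters (20.5%), with CpGs counted over all promoter windows (15.6%) and with each region given to its nearest coding TSS only (16.2%). The median width was 1220 bp when each row was counted, because the Rpl7 region is on 3 rows. The median distance was 60.6 kb to the edge of the region and 63.1 kb from the 5' end only. No paired analysis was possible because a region has a position and no value for each library. For the same reason no library could be left out, no stricter threshold could be tried, and the depth that limits detection is unknown. Rpl7 decides whether 2 or 3 of the 45 genes have a region.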

Other observations

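Paralogues of ribosomal protein genes that are restricted to tissues or duplicated were counted apart from the 45 genes. Of 7 such genes, 1 had a region at the promoter, Rpl36al, with 181 CpGs. Its region, chr12:70285166-70285425, was 260 bp wide and was shared with Mgat2, a Golgi enzyme of N-glycan synthesis, and it was also the region nearest to Rps29, 25.1 kb away. Rpl3l, a paralogue of Rpl3 used in striated muscle, had 35 CpGs and its nearest region at 31.9 kb. The nearest regions of Rps27l and Rpl22l1 were at 95.4 kb, at the tropomyosin gene Tpm1, and at 867 kb.

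The regions at mitochondrial ribosomal protein genes were 160 bp wide at Mrpl15 and Mrpl33, 320 bp at Mrps35 and 100 bp at Mrpl52, beside a median of 420 bp and quartiles of 200 and 720 bp at promoters of protein-coding genes. The proteasome subunit genes with a region were Psmd1 of the base, Psmd11 of the lid, Psma3 of the core and Psmc6 of the ATPase ring.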
